A study of Homo sapiens with 4 samples.

Results

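The 35 genes described here belong to the heat-producing program of brown and beige fat and to mitochondrial fatty acid oxidation. They were chosen by name, with earlier results of these data known, and each was found in exactly 1 of the 56753 loci of the deposited expression table. For 30 of them the locus carried that gene's name alone, while ESRRA, CPT1B, ACADM, ACAA2 and ETFB lay in loci that carried several names, whose value belongs to the whole locus. The study sequenced total RNA of 786-O cells, an established human line from a clear cell renal cell carcinoma. Cells were stably transduced with a control vector or with PRDM16 lentivirus, with 2 libraries from each, and were grown as adherent cultures under standard conditions. The sources used here give neither the lentiviral promoter nor whether each culture was a clone or a pool. Nothing in the labels states that the replicates came from separate cultures, so the spread behind each p-value is between libraries, possibly technical. The test used below also draws the variance of each locus partly from the other tested loci.

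PRDM16 is a zinc finger transcriptional regulator best known for its part in brown and beige fat, where it works with PPARG, CEBP factors, EBF2 and the coactivator PPARGC1A. Brown fat cells burn fatty acids and release the energy as heat through UCP1, a channel of the inner mitochondrial membrane that lets protons bypass ATP synthesis. Fatty acids reach the mitochondrial matrix on carnitine, through CPT1, SLC25A20 and CPT2, and are then shortened by the acyl-CoA dehydrogenases and the enzymes that follow them. The electron transfer flavoprotein, made of ETFA and ETFB, hands the electrons to ETFDH and so to the respiratory chain. Clear cell renal carcinoma is known for stored lipid and for low fatty acid oxidation.

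The libraries matched their labels. PRDM16 was 0.0157 and 0.234 FPKM in the control vector libraries and 1226 and 1146 FPKM in the PRDM16 libraries (log2 change 10.05, limma adjusted p = 0.000317). FPKM are fragments counted per kilobase of transcript and scaled to library size, so levels can be compared between genes. The read numbers behind them are unknown, but the steps of the lowest values put the other 3 libraries at 1.17 to 1.385 times the sequencing depth of control vector replicate 1. These are rough estimates from the most frequent ratio of low values, near which 10.5% to 15.3% of the loci used lay. They also carry any scaling applied to the values. The control vector libraries differed from each other by a median of 0.190 on the log2 scale and the PRDM16 libraries by 0.0979. Of 10 renal carcinoma markers, 7 had a locus of their own and 6 of these averaged at least 1 FPKM, with PAX8 at 169 to 208 FPKM. The 5 mature adipocyte markers (ADIPOQ, PLIN1, FABP4, LEP and CIDEC) summed to 0.110 and 0.246 FPKM with the control vector and to 0.276 and 0.171 FPKM with PRDM16. LEP was listed at 0 in all 4 libraries. Leukocyte markers (4 of 5 with a locus of their own), endothelial markers and skeletal muscle markers each summed to at most 0.220 FPKM in any library. Of the 3 fibroblast and smooth muscle markers with a locus of their own only LUM was above 0, at 2.004 to 2.32 FPKM.

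The defining genes of heat-producing fat were at or near 0 with and without PRDM16, whereas most of the oxidation enzymes were expressed. Of the 30 members with a locus of their own, 7 were silent (a mean under 0.1 FPKM in both groups), 8 were low (a mean under 1 FPKM over the 4 libraries) and 15 were expressed. The silent genes were UCP1, CIDEA, EBF2, ADIPOQ, TMEM26, ACADL and CD36. UCP1, CIDEA, EBF2 and ACADL were listed at 0 in all 4 libraries. A listed 0 may also be a failed estimate, since the 11 loci of the mitochondrial genome all had a value of 0 in these libraries. The same held for RXRB and SLC25A6, which most cells express and which were picked out after their values were seen.

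**Figure D1:**
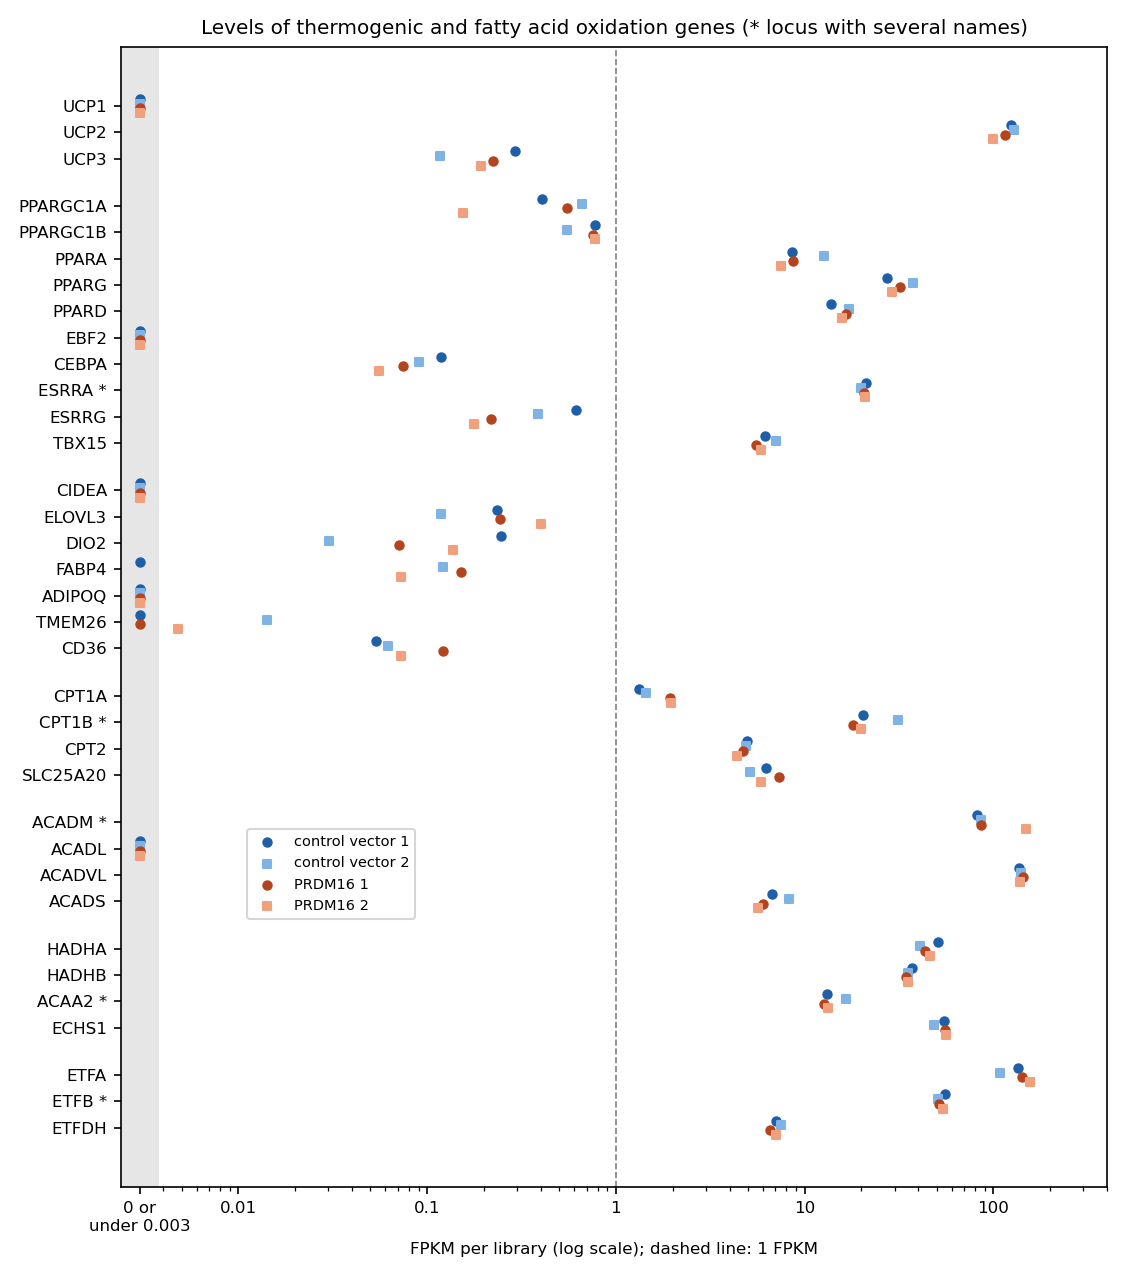
Level of each of the 35 genes in each of the 4 libraries, in FPKM on a log axis, grouped by role, with values under 0.003 FPKM drawn in the grey strip and loci with several names starred. Points of the 2 groups lie close together at most genes, and the fat effector genes all lie left of the dashed line at 1 FPKM while all oxidation enzymes except ACADL lie right of it.

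UCP1 was silent and its relative UCP2 was abundant, so the stretches before their start sites are shown. They are from RefSeq on GRCh38.p14, on the minus strand, written 5′ to 3′, with each CpG in capitals. UCP1 is the stretch chr4:140568962-140569211, the full 250 bases before the RefSeq start. The GENCODE gene begins further on, at 140568805. UCP2 is the stretch chr11:73983308-73983452, cut to 145 bases where a GENCODE exon begins.
UCP1: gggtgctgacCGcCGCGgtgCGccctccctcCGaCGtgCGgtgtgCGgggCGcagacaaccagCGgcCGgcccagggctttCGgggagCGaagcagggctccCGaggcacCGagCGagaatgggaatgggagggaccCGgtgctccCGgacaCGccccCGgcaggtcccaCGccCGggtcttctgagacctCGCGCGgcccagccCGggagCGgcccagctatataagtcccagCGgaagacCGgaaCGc
UCP2: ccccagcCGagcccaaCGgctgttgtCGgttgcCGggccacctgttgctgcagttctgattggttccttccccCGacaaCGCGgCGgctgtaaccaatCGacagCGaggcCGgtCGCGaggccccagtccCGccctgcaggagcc
The UCP1 stretch held 30 CpGs in 250 bases, a CpG ratio of observed to expected of 0.896, and the UCP2 stretch 14 in 145 bases, a ratio of 0.839. Both are thus rich in CpG although the genes stand at opposite ends of the range of levels. In the 250 bases before the RefSeq start, available for 30 members, the median CpG ratio was 0.691 (0.153 to 0.957) in 13 expressed members with a locus of their own and 0.647 (0.0789 to 1.06) in 13 low or silent ones. Over all 27305 promoters it was 0.556. These windows were not cut at GENCODE exons, so that of UCP2 includes annotated exon. The median number of CpGs was 20 in the expressed members (2 to 41), 12 in the low or silent ones (1 to 41), 10.5 in the 6 silent ones among these, and 11 over all promoters. The expressed members thus held more CpGs at the median, although the ranges overlapped. The GC box GGGCGG, read on both strands, was present before the start of 10 of the 13 expressed and 5 of the 13 low or silent members, against 42.3% of all promoters. The cyclic AMP response element TGACGTCA, also read on both strands, was in none of these 30 windows and in 1.77% of all promoters.

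Among the 3 uncoupling protein genes, only UCP2 reached 1 FPKM in any library. UCP1, the heat-producing member, lies on chromosome 4 at 140559434 to 140568805 of hg38 and was listed at 0 in every library. UCP2, a mitochondrial carrier found in many tissues (chromosome 11, 73974667 to 73983307), was 123 and 129 FPKM with the control vector and 115 and 99.5 FPKM with PRDM16. Its mean over the 4 libraries exceeded that of 92.8% of the tested loci. Both PRDM16 values were below both control values, at a log2 change of -0.23 (95% interval -0.52 to 0.05) that did not pass the test (limma adjusted p = 0.689). Bulk RNA cannot tell fewer cells that express a gene from less RNA per cell. UCP3, the form known from skeletal muscle, lies next to UCP2 at 74000281 to 74009435 and was 0.292 and 0.117 versus 0.223 and 0.194 FPKM. UCP2 thus exceeded UCP3 by 424-fold to 1098-fold within a library.

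The test covered the 13246 loci with a mean of at least 1 FPKM. A linear model was fitted with limma to log2(FPKM + 1), and p was adjusted by Benjamini-Hochberg over all tested loci. Changes are PRDM16 minus control vector on that scale, which understates changes of low genes. Counts of genes or loci with a higher or lower mean also refer to means on that scale. At an adjusted p under 0.05, 3 loci were called (0.0226%), and 0 of the 20 tested members were, 15 of which had a locus of their own. At an unadjusted p under 0.05 the count was again 0 of 20, against 6.12% of all loci, and the smallest unadjusted p among them was 0.0713. Both PRDM16 values exceeded both control values at 3 of the 15 members (21.1% of all loci) and were below them at 6 of the 15 (20.3% of all loci). The median log2 change of the 15 was -0.05, against 0.00399 over all tested loci, and single values ran from -0.33 (PPARA) to 0.31 (CPT1A). Of the 20 tested members, 10 lay within the central range of all changes, between the 25th and the 75th percentile (-0.13 to 0.13), and 18 between the 5th and the 95th (-0.39 to 0.34).

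**Figure D2:**
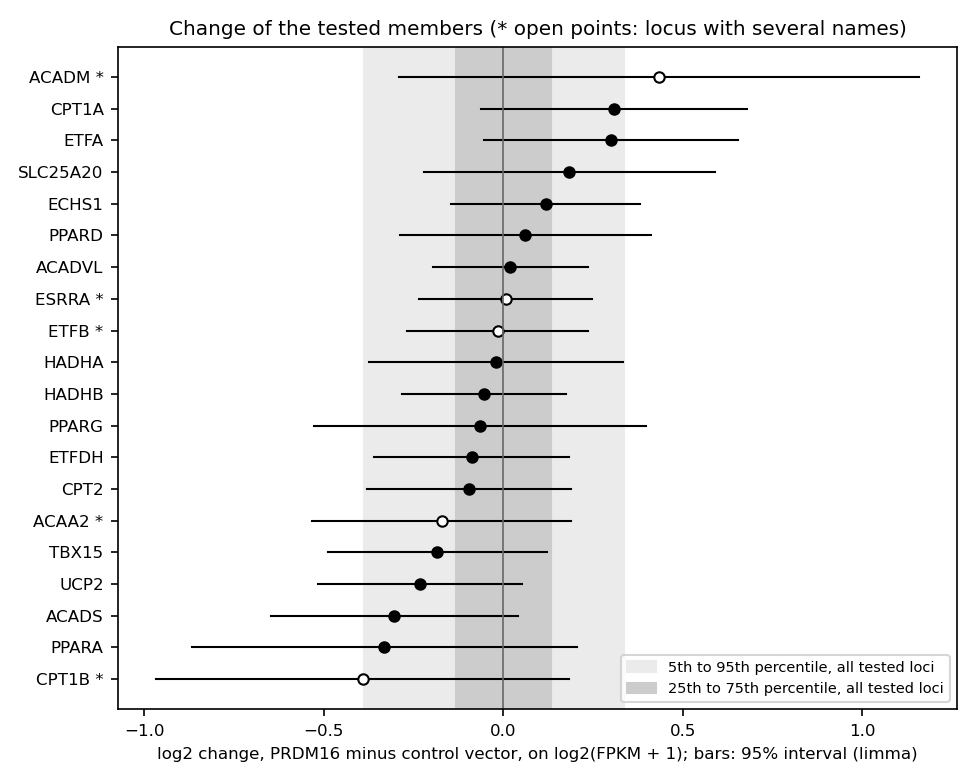
Log2 change of the 20 tested members (points) with 95% intervals from limma (bars), over the central ranges of all 13246 tested loci (grey bands). Every interval includes 0, and only the 2 outermost points, ACADM and CPT1B, which stand for loci with several names, lie outside the wide band.

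The nuclear receptors that PRDM16 and PPARGC1A work with in fat were present. PPARG, the master regulator of fat cell formation (chromosome 3, 12287368 to 12434356), was the most abundant of the PPAR genes, at 27.3 and 37.5 FPKM with the control vector and 32.1 and 29.1 FPKM with PRDM16. The PRDM16 values lay between the control vector values. Within a library PPARG was 1.83 to 2.17 times PPARD and 2.97 to 3.89 times PPARA. PPARD, the broadly expressed member, was 13.8 and 17.3 versus 16.5 and 15.9 FPKM. PPARA, the receptor best known for switching on fatty acid oxidation genes in liver (chromosome 22, 46150521 to 46243756), was 8.54 and 12.6 versus 8.69 and 7.47 FPKM. These groups overlapped too. The log2 change of PPARA, -0.33 (SE 0.20, limma adjusted p = 0.689), became -0.07 when control vector replicate 2 was left out and -0.59 when replicate 1 was. The changes of PPARG and PPARD were -0.06 (SE 0.18) and 0.06 (SE 0.13), and both depended on which control library was kept. Without control vector replicate 2 they were 0.16 and 0.21, and without control vector replicate 1 they were -0.29 and -0.09.

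The coactivators were near the floor. PPARGC1A, which drives mitochondrial and thermogenic genes in brown fat (chromosome 4, 23755041 to 23904089), was 0.405 and 0.662 FPKM with the control vector and 0.547 and 0.156 FPKM with PRDM16. The lowest value was in a PRDM16 library, and the other PRDM16 library lay between the controls. Its relative PPARGC1B was 0.778 and 0.553 versus 0.759 and 0.773 FPKM, so 3 of the 4 libraries lay close together.

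The estrogen-related receptors, orphan nuclear receptors that bind PPARGC1A to act on oxidation genes, were unequal in level. ESRRA shared a locus with AP001453.1, at 21.3 and 19.9 versus 20.5 and 20.8 FPKM, giving a log2 change of 0.01 (95% interval -0.23 to 0.25). In the annotation its exons also overlap TRMT112 on the opposite strand, and the sources used here do not say whether strand was kept. ESRRG was 0.612 and 0.387 FPKM with the control vector and 0.218 and 0.176 FPKM with PRDM16, a 2.53-fold lower mean, with no overlap between groups. It was below the level required for the test. With no filter on low values its unadjusted p was 0.0369 and its limma adjusted p 0.745.

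Transcription factors of the fat lineage differed from one another. TBX15, a T-box factor linked to fat and skeletal development (chromosome 1, 118883046 to 118989556), was 6.16 and 7.08 FPKM with the control vector and 5.55 and 5.85 FPKM with PRDM16. Both PRDM16 libraries were lower, at a log2 change of -0.18 (SE 0.12, limma adjusted p = 0.689). EBF2, which marks brown fat precursors, was listed at 0 throughout. CEBPA, needed for fat cell maturation, was 0.119 and 0.090 versus 0.0746 and 0.0554 FPKM. Those groups did not overlap, but all 4 values are far below the level at which loci were tested.

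None of the 7 effector genes of brown, beige or white fat reached 1 FPKM in any library. CIDEA, a lipid droplet protein of brown fat, was listed at 0. ELOVL3, a fatty acid elongase induced by cold in brown fat, was 0.235 and 0.118 FPKM with the control vector and 0.243 and 0.3999 FPKM with PRDM16. DIO2, which makes active thyroid hormone inside brown fat cells, was 0.246 and 0.0303 versus 0.0708 and 0.137 FPKM. ELOVL3 values did not overlap between groups and DIO2 values did. TMEM26, a beige fat surface marker, was above 0 in 1 library of each group, at 0.0142 FPKM in control vector replicate 2 and 0.00477 FPKM with PRDM16 replicate 2. The fatty acid binding protein gene FABP4 was 0 and 0.122 versus 0.150 and 0.0731 FPKM, and the adipokine gene ADIPOQ was 5.54e-07 FPKM in control vector replicate 1 and 0 in the other libraries. CD36, which takes up fatty acids at the cell surface, was 0.0538 and 0.0620 versus 0.122 and 0.0729 FPKM. Of the 15 low or silent members, the groups overlapped at 11, 4 of them with a 0 in every library, and PRDM16 lay above the control vector at 2 (ELOVL3 and CD36) and below it at 2 (CEBPA and ESRRG). Of the 15089 loci of the table with a mean under 1 FPKM and a value above 0, 11% lay above and 15.4% below in the same way. With no filter on low values, none of them passed (limma adjusted p at least 0.745, with 4 members not tested because they are 0 in every library).

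The carnitine shuttle was present at modest levels, and CPT1A was its lowest tested member. CPT1A, the liver form of the enzyme that sets the rate of fatty acid entry (chromosome 11, 68754620 to 68844410), was 1.33 and 1.44 FPKM with the control vector and 1.94 and 1.96 FPKM with PRDM16. The libraries within each group were nearly equal, and both PRDM16 values lay above both controls, 1.41-fold on the means. The log2 change was 0.31 (95% interval -0.06 to 0.68) and did not pass (unadjusted p = 0.0840, limma adjusted p = 0.689). Leaving out any library kept it between 0.28 and 0.34, and a pseudocount of 0.1 in place of 1 gave 0.47. CPT1A nonetheless stood above only 7.99% of the tested loci.

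CPT2, which returns the fatty acid from carnitine to coenzyme A inside the mitochondrion, was 4.98 and 4.88 FPKM with the control vector and 4.73 and 4.37 FPKM with PRDM16 (log2 change -0.10, SE 0.11). Annotated exons of C1orf123 and AL606760.2 overlap it on the opposite strand. With that limit, the ratio of CPT2 to CPT1A was 3.75 and 3.40 with the control vector and 2.44 and 2.23 with PRDM16. SLC25A20, the carrier between them, was 6.22 and 5.12 versus 7.29 and 5.89 FPKM, with overlap (log2 change 0.18, SE 0.15). CPT1B, the muscle form of CPT1, shared a locus with CHKB and the read-through CHKB-CPT1B. That locus was 20.4 and 31.3 FPKM with the control vector and 18.1 and 20.0 FPKM with PRDM16, for a log2 change of -0.39 (SE 0.22, limma adjusted p = 0.689). With control vector replicate 2 left out it became -0.10, and the share of CPT1B in the value is unknown.

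The acyl-CoA dehydrogenases, which carry out the opening step of each oxidation cycle for fatty acids of different length, spanned the widest range. ACADVL, for very long chains (chromosome 17, 7217125 to 7225273), was 137 and 140.4 FPKM with the control vector and 144 and 138 FPKM with PRDM16. By its mean it was the most abundant member with a locus of its own, above 94.3% of tested loci, and its interval was among the narrowest, with a log2 change of 0.02 (95% interval -0.20 to 0.24). Annotated exons of DLG4 overlap it on the opposite strand. ACADS, for short chains (chromosome 12, 120725735 to 120740008), was 6.73 and 8.22 versus 6.02 and 5.65 FPKM. Both PRDM16 libraries were lower, at a log2 change of -0.30 (95% interval -0.65 to 0.04). This was the smallest unadjusted p among the members (0.0713), and it did not pass (limma adjusted p = 0.689). Without control vector replicate 2 the change was -0.18. ACADVL exceeded ACADS 17.1-fold to 24.4-fold within a library.

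ACADM, for medium chains, could not be read apart from its neighbours. Its locus also names RABGGTB and the small nucleolar RNAs SNORD45A, SNORD45B and SNORD45C, and was 81.5 and 85.9 FPKM with the control vector and 85.9 and 149 FPKM with PRDM16. Only PRDM16 replicate 2 stood apart. The log2 change of 0.43 (SE 0.27, limma adjusted p = 0.689) was 0.04 without that library. ACADL, the long-chain form, was listed at 0 in all 4 libraries.

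Genes of the later steps of the cycle were expressed in all 4 libraries. HADHA and HADHB, the alpha and beta subunits of the trifunctional protein that completes the cycle for long chains, lie head to head on chromosome 2, HADHA on the minus strand at 26190635 to 26244726 and HADHB on the plus strand at 26243170 to 26290468. HADHA was 50.6 and 40.7 FPKM with the control vector and 43.5 and 46.0 FPKM with PRDM16. HADHB was 37.0 and 35.5 versus 34.6 and 35.1 FPKM. The ratio of HADHA to HADHB stayed between 1.15 and 1.37 in all libraries. Neither gene differed beyond its error, with 95% intervals of the log2 change of -0.38 to 0.33 for HADHA and -0.28 to 0.17 for HADHB. ECHS1, the short-chain enoyl-CoA hydratase, was 54.6 and 48.5 versus 55.6 and 56.2 FPKM (log2 change 0.12, SE 0.10), without overlap but with control vector replicate 1 close to both PRDM16 libraries. The thiolase gene ACAA2 shared a locus with MYO5B and RP11-886H22.1, at 13.1 and 16.5 versus 12.7 and 13.3 FPKM.

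The electron transfer flavoprotein genes were among the higher members. ETFA, the alpha subunit (chromosome 15, 76215355 to 76311472), was 134 and 109 FPKM with the control vector and 142 and 156 FPKM with PRDM16. Both PRDM16 libraries were higher, 1.23-fold on the means, at a log2 change of 0.30 (95% interval -0.05 to 0.65) that did not pass (limma adjusted p = 0.689). The change became 0.15 with control vector replicate 2 left out and 0.45 with replicate 1 left out. ETFB, the beta subunit, shared a locus with CLDND2 and CTD-2616J11.11, at 55.7 and 51.1 versus 51.3 and 54.2 FPKM, giving a log2 change of -0.02 (SE 0.10). ETFDH, which passes the electrons to ubiquinone, was 7.02 and 7.49 versus 6.53 and 7.01 FPKM, giving a log2 change of -0.09 (SE 0.10). Its annotated exons overlap those of PPID and C4orf46 on the opposite strand.

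Over the 10 oxidation members tested at a locus of their own, 5 had a higher and 5 a lower mean with PRDM16. Both PRDM16 libraries lay above both controls at 3 (CPT1A, ECHS1 and ETFA) and below at 4 (CPT2, ACADS, HADHB and ETFDH), against 21.1% and 20.3% of all tested loci. The median log2 change was -0.000757 and moved to 0.07 without control vector replicate 1. The plot of changes with each library left out shows how far each member depended on 1 library.

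**Figure D3:**
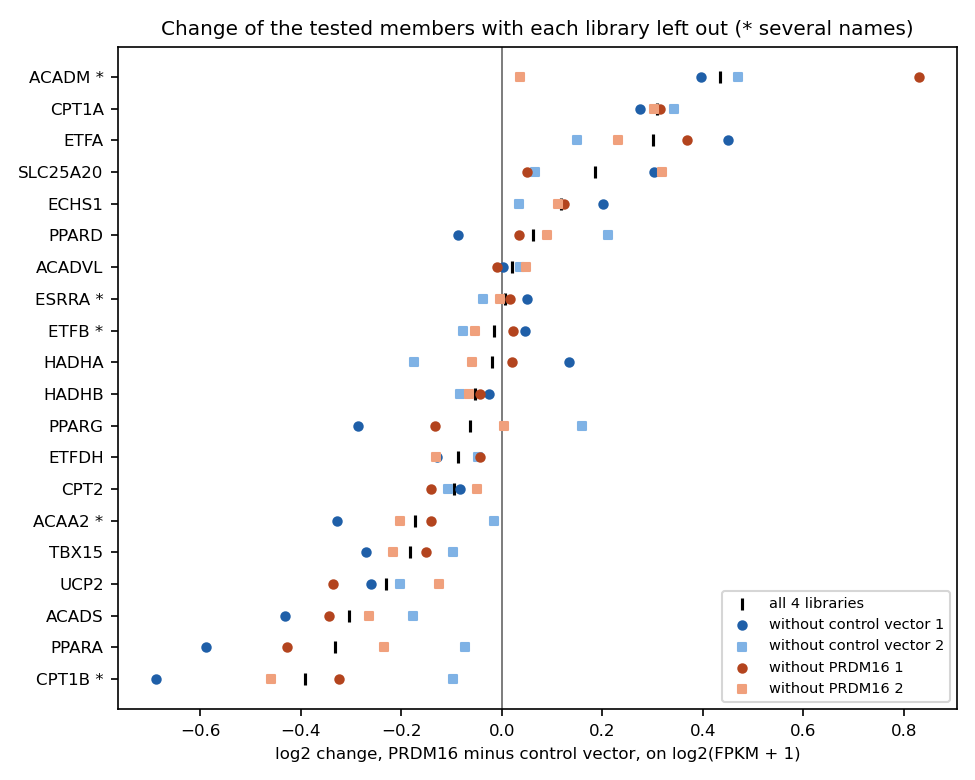
Log2 change of the 20 tested members with all 4 libraries (black ticks) and with each library left out in turn (coloured points). CPT1A stays between 0.28 and 0.34, PPARG and HADHA have points on both sides of 0, and the ACADM locus runs from 0.04 to 0.83.

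Other genes of fatty acid oxidation were read from lists of names, also chosen with earlier results of these data known. None of the genes tested in these lists passed at an adjusted p under 0.05. An unadjusted p under 0.05 was reached by 6.12% of all tested loci. Both PRDM16 libraries lay above both controls at 21.1% of all tested loci and below at 20.3%. Of 24 further genes of mitochondrial oxidation and related steps, 20 were tested, 9 with a higher and 11 with a lower mean (median log2 change -0.05). Of these, 0 had an unadjusted p under 0.05. The list also held ACACB and genes of amino acid breakdown such as HIBCH, so its counts do not describe fatty acid oxidation alone. The most abundant was HSD17B10, a hydroxyacyl-CoA dehydrogenase, at 103 and 88.9 versus 101 and 109 FPKM. The isomerases ECI2 and ECI1, which prepare unsaturated fatty acids for the cycle, lay on opposite sides. ECI2 was 83.6 and 76.7 versus 86.5 and 89.5 FPKM, and ECI1 was 66.0 and 69.5 versus 61.3 and 57.4 FPKM. Groups did not overlap for either isomerase. In this list both PRDM16 libraries lay above both controls at 3 genes and below at 3. The branched-chain dehydrogenase ACADSB was 5.21 and 6.30 versus 4.83 and 4.19 FPKM, and HIBCH, of valine breakdown, was 8.61 and 7.34 versus 9.24 and 10.4 FPKM.

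Uptake and activation genes (14 tested, 5 higher, 9 lower, median log2 change -0.06) again held no gene with an unadjusted p under 0.05. DBI, which binds acyl-CoA in the cytosol, was the most abundant at 342 and 302 versus 307 and 322 FPKM. The acyl-CoA synthetase gene ACSL3 was 76.3 and 85.7 versus 71.5 and 67.2 FPKM. ACSF2, of the same superfamily, was 10.4 and 15.0 versus 9.00 and 8.79 FPKM (log2 change -0.45, SE 0.18). The transporter SLC27A4 was 17.9 and 16.3 versus 19.5 and 19.5 FPKM. ACSL3 and ACSF2 thus lay lower and SLC27A4 higher in both PRDM16 libraries. In the whole list, both PRDM16 libraries lay above both controls at 2 genes and below at 4, against 21.1% and 20.3% of all tested loci. Leaving out control vector replicate 2 or PRDM16 replicate 1 gave 7 higher and 7 lower means. ACBD3 was 24.3 and 29.8 versus 27.7 and 27.3 FPKM. ACBD3 and FABP6 were in the list by family name alone, so its counts are not strictly those of uptake and activation.

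Peroxisomal oxidation genes (12 tested, 5 higher, 7 lower, median log2 change -0.04) had 0 genes at an unadjusted p under 0.05. CAT, the catalase that removes the hydrogen peroxide made there, was 21.7 and 26.0 versus 20.6 and 18.2 FPKM. PHYH, for branched fatty acids, was 19.4 and 20.8 versus 17.8 and 18.4 FPKM. Both lay lower in both PRDM16 libraries, while PEX11A, which acts in peroxisome division, lay higher at 2.89 and 3.10 versus 3.22 and 4.08 FPKM. In the whole list, both PRDM16 libraries lay above both controls at 1 gene and below at 4, against 21.1% and 20.3% of all tested loci. The transporter gene ABCD3 was 25.6 and 17.1 versus 23.9 and 24.3 FPKM, and only control vector replicate 2 stood apart. Without PRDM16 replicate 1 the list had 6 higher and 6 lower means and a median of 0.00419.

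Further markers and regulators of brown and beige fat repeated the split between silent and expressed genes. Of 30 listed, 26 had a locus of their own, 11 of these had a mean under 0.1 FPKM and 10 were tested, 6 with a higher and 4 with a lower mean (median log2 change 0.01). That small majority did not hold with any library left out. The counts became 4 higher and 6 lower without control vector replicate 1, control vector replicate 2 or PRDM16 replicate 2 (medians -0.08, -0.0202 and -0.0372), and 5 and 5 without PRDM16 replicate 1 (median -0.0568). The brown fat genes ADRB3, ZIC1 and LHX8, named here after their values were seen, were listed at 0 in all 4 libraries. Other genes of the list, named in the same way, were expressed. KCNK3 was 15.8 and 13.0 versus 14.5 and 14.6 FPKM, and LETMD1 was 17.5 and 25.6 versus 20.3 and 18.2 FPKM. SHOX2 was 2.24 and 2.02 versus 2.04 and 2.28 FPKM. The nucleoside transporter SLC29A1 was 50.1 and 46.4 FPKM with the control vector and 61.8 and 62.2 FPKM with PRDM16. Of the 10 tested, it was the 1 gene with an unadjusted p under 0.05 (0.0130), against 6.12% of all tested loci. Its log2 change was 0.36 (SE 0.09), and it did not pass (limma adjusted p = 0.689). TNFRSF9, a beige fat marker better known from T cells, was 12.7 and 17.0 versus 11.9 and 10.95 FPKM. GDF15, a stress-induced hormone gene, was 49.6 and 97.9 versus 82.5 and 59.9 FPKM. It belongs to the 6 higher genes on the log2 scale only. Its mean FPKM was 73.8 with the control vector and 71.2 with PRDM16. EVA1A was 49.0 and 30.8 versus 46.6 and 51.3 FPKM, and EPSTI1 was 1.71 and 1.81 versus 1.29 and 1.496 FPKM. In the whole list, both PRDM16 libraries lay above both controls at 1 gene and below at 3, against 21.1% and 20.3% of all tested loci.

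Genes of mitochondrial biogenesis, through which PPARGC1A acts on the organelle, mostly had higher means with PRDM16, without passing the test. Of 17 listed, 14 were tested, of which 11 had a higher and 3 a lower mean (median log2 change 0.11), and both PRDM16 libraries lay above both controls at 6 and below at 0. Of all 13246 tested loci, 6717 had a higher mean, 21.1% lay above in both libraries and 20.3% below. POLRMT, the mitochondrial RNA polymerase, was 15.6 and 15.6 FPKM with the control vector and 18.8 and 18.6 FPKM with PRDM16 (log2 change 0.25, SE 0.09, unadjusted p = 0.0378). TFB2M, its transcription partner, was 15.3 and 14.3 versus 17.9 and 19.7 FPKM (log2 change 0.32, SE 0.10, unadjusted p = 0.0280). Libraries within each group were close for both genes. These were the 2 of the 14 with an unadjusted p under 0.05, against 6.12% of all tested loci. None passed over all loci (limma adjusted p at least 0.689). TFAM, which packs and transcribes mitochondrial DNA, was 48.7 and 37.0 versus 50.2 and 56.1 FPKM. PPRC1, a relative of PPARGC1A, was 23.6 and 19.6 versus 25.9 and 26.9 FPKM. For both of these, control vector replicate 2 was the lowest library. YY1 was 50.1 and 47.0 versus 53.4 and 55.8 FPKM, and the kinase gene PRKAA1 was 64.6 and 56.7 versus 63.8 and 59.1 FPKM. Without control vector replicate 2, the list had 9 higher and 5 lower means and a median of 0.04, and without PRDM16 replicate 1 it had the same counts and a median of 0.155.

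**Figure D4:**
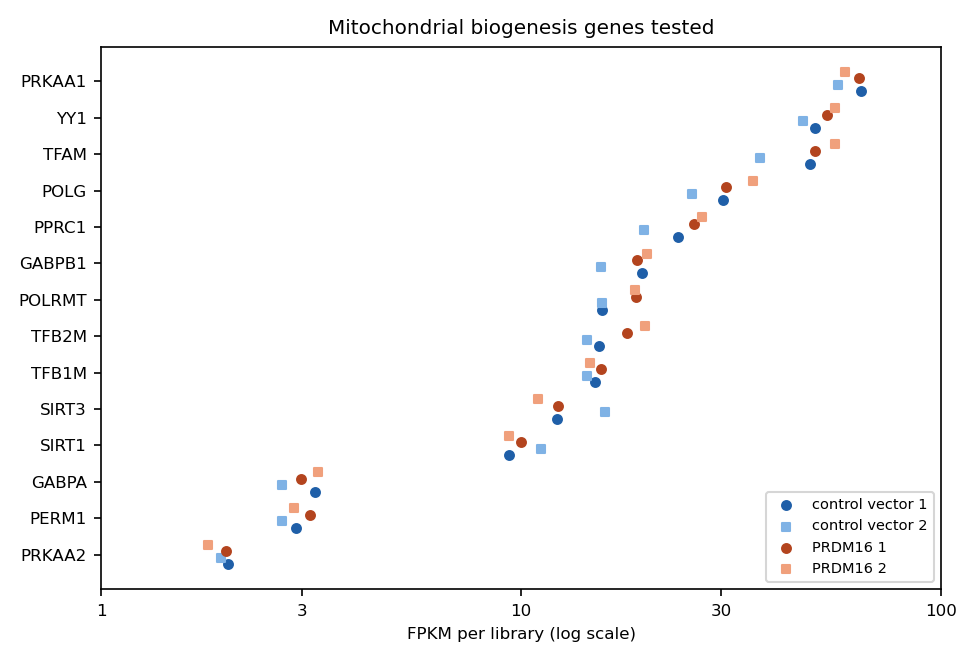
Level of the 14 tested genes of mitochondrial biogenesis in each library, in FPKM on a log axis. POLRMT and TFB2M separate the PRDM16 libraries (18.8 and 18.6, 17.9 and 19.7 FPKM) from the control vector libraries, while at TFAM and PPRC1 control vector replicate 2 lies farthest to the left.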

How the data were processed

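The authors' deposited values are read as FPKM, although the header gives no unit. The reading rests on the tools (Cufflinks 2.2.1 and Cuffdiff after TopHat2 2.1.0 and Trim Galore, on hg38, per the submitters' processing notes) and on sums of 556213 to 574003 per library. The sources used here do not give the annotation, filters, scaling or strand. Coordinates and exon overlaps are from GENCODE release 29 on GRCh38, the assembly of hg38, and upstream sequences from RefSeq on GRCh38.p14. Loci with a mean of at least 1 FPKM (13246) were fitted in R 4.3.3 with limma 3.58.1 on log2(FPKM + 1), two-sided and with a trend in the variance. With 2 libraries against 2, p depends heavily on the model, which draws the variance of each locus toward a trend over all tested loci. A gene with nearly equal libraries can thus have a larger SE than its own values give. The fit was tested on simulated data for recovery of known changes, with independent noise and the same spread in both groups. This does not show how often changes as small as those of the members would be called. All 35 members were named whatever their values. From each further list, called genes, the 3 most abundant and up to 3 without overlap and with the smallest p were named. Members and lists were chosen with earlier results of these data known. Lists used loci with 1 name. Python 3.11.15 (pandas 2.3.3, numpy 2.4.6, matplotlib 3.10.9) made tables and plots. Alternatives covered pseudocount, filter, scaling, variance model, replicate block and leaving out each library. Running these for the further lists was chosen after seeing the data.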

Additional observations from a re-analysis of the deposited data

How the results depend on the processing

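No member was called in any other setting that kept all 4 libraries, where the lowest limma adjusted p was 0.679. PRDM16 was called in each, at a log2 change of 9.85 (quantile normalization) to 12.56 (pseudocount 0.1). Of 278 member values recomputed over all 14 other settings, 266 kept their direction, and 14 of the 20 members kept it throughout. After quantile normalization ACADVL was -0.0204 and ESRRA -0.00172. With each library left out, log2 changes ran from -0.00958 to 0.0477 (ACADVL), -0.0377 to 0.0504 (ESRRA), -0.077 to 0.0449 (ETFB), -0.18 to 0.13 (HADHA), -0.0877 to 0.211 (PPARD) and -0.29 to 0.16 (PPARG). The median over oxidation members ran from -0.00644 to 0.0684. The 3 called loci became 5 with a pseudocount of 0.1, 1 without a filter, 6 without a variance trend, 5 with robust variances and 16 to 39 with a library left out; the cause was not tested. With the replicate number as a block the count was 5 and no member was called (lowest adjusted p 0.917). Same-numbered libraries did not deviate together (correlation -0.06 across loci). With 1 pair per group, this cannot exclude that they were handled together. CPT1A and CPT2 could not be computed at a mean of at least 5 FPKM. The count-based tools were not run because the table holds no counts. Depth behind the values below 1 FPKM is unknown.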

Other observations

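Heat can also be made without UCP1, by cycles of creatine or calcium and by proton leak through other carriers. Of 23 listed genes of such cycles and carriers, all had a locus of their own, 9 had a mean under 0.1 FPKM and 11 were tested, 3 with a higher and 8 with a lower mean (median log2 change -0.08). Both PRDM16 libraries lay above both controls at 2 of the 11 and below at 5, against 21.1% and 20.3% of all tested loci. The direction of the median turned without control vector replicate 1, with 6 higher and 5 lower means and a median of 0.0703. SLC25A5, an ADP/ATP carrier, was the most abundant, at 269 and 219.95 FPKM with the control vector and 275 and 285 FPKM with PRDM16. The calcium pump gene ATP2A2 was 104 and 110 versus 103 and 99.2 FPKM, and the creatine transporter gene SLC6A8 was 62.9 and 71.9 versus 58.0 and 62.0 FPKM. The carrier gene SLC25A4 was 8.24 and 7.51 versus 8.66 and 9.17 FPKM. CKB, the creatine kinase of the creatine cycle, was 1.84 and 3.59 versus 1.52 and 1.03 FPKM, giving a log2 change of -0.67 (SE 0.28, unadjusted p = 0.0684, limma adjusted p = 0.689). No gene of this list had an unadjusted p under 0.05.

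White fat genes beyond the members were also split between silent and expressed genes. Of 15 listed, 14 had a locus of their own, 8 of these had a mean under 0.1 FPKM and 6 were tested, 3 with a higher and 3 with a lower mean (median log2 change -0.01, and 0.0636 without control vector replicate 2). Of the 6, 2 had an unadjusted p under 0.05, against 6.12% of all tested loci, and neither passed over all loci (limma adjusted p = 0.689 for both). DGAT2, which completes triglyceride synthesis, was 2.79 and 3.17 FPKM with the control vector and 4.53 and 4.63 FPKM with PRDM16, for a log2 change of 0.49 (SE 0.12, unadjusted p = 0.0112). CEBPD, an early factor of fat cell formation, was 19.1 and 21.3 versus 15.0 and 14.8 FPKM, giving a log2 change of -0.42 (SE 0.10, unadjusted p = 0.0102). For both genes the libraries within each group were close and the groups did not overlap. In the whole list, both PRDM16 libraries lay above both controls at 2 genes and below at 1, against 21.1% and 20.3% of all tested loci. GPAM, which opens triglyceride synthesis, was 5.31 and 4.49 versus 5.39 and 5.93 FPKM. CEBPB was 26.8 and 48.6 versus 31.3 and 24.8 FPKM, and the lipase gene PNPLA2 was 79.7 and 90.1 versus 80.7 and 71.5 FPKM.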
